A study of Homo sapiens with 20 samples.

Results

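The comparison described here asks how far decitabine (DCB) moved each gene in AGS, the CIMP-positive line, beyond what it did in HGC27 and SNU16, the CIMP-negative lines, when no EBV is present. For each gene the DCB minus DMSO difference in AGS was taken, and the mean of the same differences in HGC27 and SNU16 was subtracted. It rests on 12 of the 20 libraries of the study, with 2 libraries each of AGS DCB, AGS DMSO, HGC27 DCB, HGC27 DMSO, SNU16 DCB and SNU16 DMSO. The 8 libraries of the EBV+ lines YCCEL1 and SNU719 were set beside it only to see where the same genes moved. All lines are wild type gastric cancer cell lines, exposed for 72 h to 7.5 µM DCB or to DMSO, the solvent control. Polyadenylated RNA was sequenced. Values are the normalised counts made by the authors, and differences are on the log2(value + 1) scale. A gene was tested when its values summed to more than 10 over the 20 libraries, which left 27350 of 60232 genes.

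DCB, an analogue of deoxycytidine, enters DNA as cells replicate and traps the DNA methyltransferases there, so that methyl groups are not copied to the new strand. The CpG island methylator phenotype (CIMP) is a state of gastric and other cancers in which CpG islands at many promoters carry methylation, and genes with methylated islands are often silent. A CIMP+ line therefore holds many silent genes that a CIMP− line may already express. Germ-cell genes are a separate class, because their promoters are methylated in most somatic cells whatever the CIMP state.

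With 1 CIMP+ line set against 2 CIMP− lines, CIMP and every other feature of AGS cannot be told apart. The lines also differ in kind. EPCAM, an epithelial adhesion protein, lay between 4458 and 4827 in the AGS libraries, between 22.4 and 38.5 in the HGC27 libraries and between 4629 and 4866 in the SNU16 libraries. VIM, the intermediate filament of mesenchymal cells, had 565 and 556 in AGS DCB and 57.3 and 80.5 in AGS DMSO, against 25638 and 25903 in HGC27 DCB and 71737 and 72756 in HGC27 DMSO, and at most 15.4 in any SNU16 library. HGC27 thus lacked a defining epithelial marker and was rich in a mesenchymal one, and the counts and the main genes are therefore also given against each CIMP− line alone. Library totals ran over a narrow range, from 7764408 to 9100101, and the 2 libraries of each group correlated at r = 0.971 to 0.977 across genes. No source says that the 2 libraries of a group came from separate cultures, so the p-values measure the spread between libraries only, which may be technical.

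Promoter sequences of some of the genes on which the comparison turns are shown first. Each window runs from 250 bases before to 50 bases after the start of the gene, on the gene's strand, and was taken from RefSeq on GRCh38.p14. SCRN1, STOM and TPM2 are among the genes with the smallest p whose AGS response was the larger one, and all 3 were near 0 in AGS DMSO cells and abundant in both CIMP− lines. DOCK11 is shown as a gene whose response was smaller in AGS. In these 4 windows the capitals mark CG, the dinucleotide that DNA methyltransferases act on.
SCRN1, chr7:29989752-29990051, minus strand: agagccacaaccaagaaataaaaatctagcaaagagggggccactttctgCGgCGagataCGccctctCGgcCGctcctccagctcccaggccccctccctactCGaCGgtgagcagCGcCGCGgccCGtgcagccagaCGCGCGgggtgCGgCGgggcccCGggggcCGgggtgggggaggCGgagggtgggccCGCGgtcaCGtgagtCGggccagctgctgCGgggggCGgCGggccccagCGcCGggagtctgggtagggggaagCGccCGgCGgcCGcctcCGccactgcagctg
STOM, chr9:121370201-121370500, minus strand: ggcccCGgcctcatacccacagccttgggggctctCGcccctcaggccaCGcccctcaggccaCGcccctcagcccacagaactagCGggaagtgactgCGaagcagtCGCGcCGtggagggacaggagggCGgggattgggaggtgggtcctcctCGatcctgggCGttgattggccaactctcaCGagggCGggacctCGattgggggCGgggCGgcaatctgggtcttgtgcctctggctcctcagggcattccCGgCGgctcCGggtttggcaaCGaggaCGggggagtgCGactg
TPM2, chr9:35690007-35690306, minus strand: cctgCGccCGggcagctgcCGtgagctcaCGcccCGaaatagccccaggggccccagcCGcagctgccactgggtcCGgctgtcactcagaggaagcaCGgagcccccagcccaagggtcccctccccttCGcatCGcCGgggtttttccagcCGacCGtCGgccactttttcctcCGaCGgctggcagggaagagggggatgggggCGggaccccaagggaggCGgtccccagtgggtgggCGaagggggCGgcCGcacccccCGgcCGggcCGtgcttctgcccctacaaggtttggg
DOCK11, chrX:118495565-118495864, plus strand: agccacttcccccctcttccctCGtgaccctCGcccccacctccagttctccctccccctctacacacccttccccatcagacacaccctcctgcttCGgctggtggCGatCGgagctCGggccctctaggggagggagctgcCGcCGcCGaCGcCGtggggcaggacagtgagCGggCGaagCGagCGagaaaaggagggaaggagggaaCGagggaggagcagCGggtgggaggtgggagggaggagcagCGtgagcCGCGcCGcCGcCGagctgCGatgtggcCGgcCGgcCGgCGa

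The 4 windows hold 33 CG in SCRN1, 23 in STOM, 24 in TPM2 and 28 in DOCK11. The ratio of CG found to CG expected from the base content was 0.802, 0.648, 0.612 and 0.741 in that order, so that all 4 sit above 0.6, a usual limit for a CpG island. The same was true of 58.8% of the 27260 genes with a window. A window rich in CG was thus common, and it was found on both sides of the comparison.

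MBD3L2, a relative of the methyl-CpG binding proteins that is expressed in the cleavage-stage embryo, stands for a different kind of promoter. Its window holds 5 CG. Here the capitals mark TAA, then any 3 bases, then AATCA, a core to which DUX4 binds, searched on both strands and found on the strand opposite to the gene.
MBD3L2, chr19:7049071-7049370, plus strand: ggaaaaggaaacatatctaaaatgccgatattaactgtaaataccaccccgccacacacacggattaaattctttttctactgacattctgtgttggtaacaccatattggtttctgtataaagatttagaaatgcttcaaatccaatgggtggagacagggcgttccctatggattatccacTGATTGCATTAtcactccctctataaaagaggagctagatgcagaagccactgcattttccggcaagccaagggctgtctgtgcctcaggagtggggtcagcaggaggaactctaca

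Of 42 genes of the DUX4-type list with a RefSeq window, 12 held these letters. Short stretches around the match are set out here for 6 of them, read along the strand of the match, with the 11 letters in capitals. H3Y1 and H3Y2 share most of their flanks, as do MBD3L2 and MBD3L3. TRIM48 and RFPL4A are shown as single members of their families.
H3Y1: ggtgggtcTAATCCAATCAtctgagct
H3Y2: ggtgagtcTAATGCAATCAtctgagct
MBD3L2: gggagtgaTAATGCAATCAgtggataa
MBD3L3: gcgagtgaTAATGCAATCAgtggataa
TRIM48: agtgatgaTAATTTAATCAgccgtgca
RFPL4A: ctccttttTAATCCAATCAgattctga

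A match is a description of the letters and says nothing on binding in these cells.

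DCB had a larger effect in AGS than in the CIMP− lines on 1356 genes and a smaller effect on 288 genes. These genes passed an adjusted p below 0.05 in limma with Benjamini-Hochberg adjustment and differed by more than 2 on the log2 scale, and they were 4.96% and 1.05% of the genes tested. Without the limit on the size, the counts were 2770 (10.1%) and 1786 (6.53%). The limit passes through a dense part of the distribution, since DDX43 lay just inside it at 2.00 and NEU1 just outside at 1.99994. Over all genes tested the median difference was 0.07. Against HGC27 alone 1454 genes were larger in AGS (5.32%) and 635 smaller (2.32%), and against SNU16 alone 1210 were larger (4.42%) and 283 smaller (1.03%). Between the CIMP− lines 649 genes responded more in HGC27 than in SNU16 (2.37%) and 426 less (1.56%). Genes that passed against the mean and against both lines singly came to 819 larger (2.99%) and 84 smaller (0.307%).

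The larger genes were mostly genes that DCB switched on in AGS. Of the 1356, 1242 (91.6%) were called higher with DCB in AGS itself, against 2342 (8.56%) of all genes tested, and 1076 of them were called higher in neither CIMP− line. A fall in a CIMP− line made up little of it, as 26 were called lower with DCB in HGC27, against 0.508% of all genes, and 3 in SNU16, against 0.0878%. In AGS DMSO cells 881 (65.0%) of the 1356 had a mean below 1, against 28.3% of all genes tested. Listed at 0 in both AGS DMSO libraries were 634 (46.8%), against 18.6%. The smaller genes had another make-up. Of the 288, 91 were called lower with DCB in AGS, against 0.574% of all genes tested, and 104 were called higher with DCB in HGC27, against 4.54%. Called higher in SNU16 were 30, against 1.97%. Each of these responses shares its libraries with the comparison, so the counts describe what the difference is made of.

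**Figure D1:**
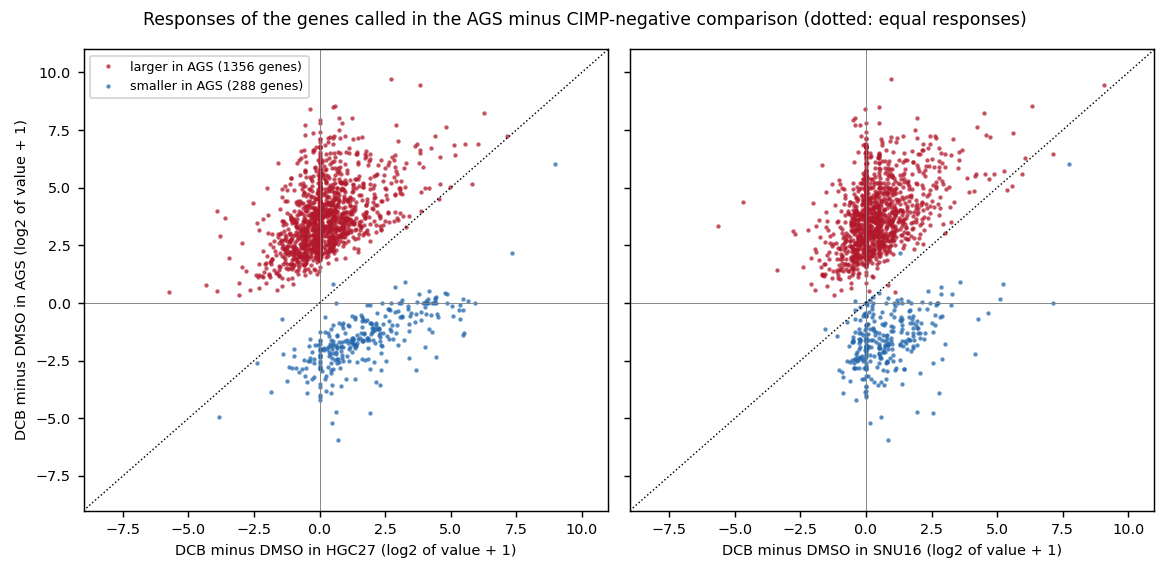
DCB minus DMSO in AGS (vertical, log2 of value + 1) against the same difference in HGC27 (left) and in SNU16 (right), 1 point per gene, for the 1356 genes with a larger and the 288 genes with a smaller response in AGS. The larger genes rise along the vertical axis close to 0 on the horizontal one, and the smaller genes scatter below the dotted line of equal responses.

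The 881 genes below 1 in AGS DMSO cells split into nearly equal groups by their state in the CIMP− lines. In 294 both CIMP− lines stood at 1 or more in DMSO, in 295 only 1 did, and in 292 neither did. These were 21.7%, 21.8% and 21.5% of the 1356. The same kinds made up 5.47%, 13.1% and 9.74% of all genes tested. Where both CIMP− lines stood at 1 or more, the median response was 3.55 in AGS, −0.10 in HGC27 and 0.07 in SNU16. After DCB the median level of these genes in AGS was 13.1, against DMSO levels of 58.4 in HGC27 and 18.9 in SNU16. Where all 3 lines were below 1, the median response was 3.90 in AGS and 0 in both HGC27 and SNU16. Members of that class also moved elsewhere, as 27 (9.25%) were called higher with DCB in HGC27, 21 (7.19%) in SNU16, 130 (44.5%) in YCCEL1 and 114 (39.0%) in SNU719. Of all genes tested 4.54%, 1.97%, 6.68% and 5.26% were called higher in that order. Genes at such low levels rose more often in general. Of all 2665 tested genes below 1 in DMSO of the 3 lines, 395 were called higher in YCCEL1 and 342 in SNU719. The remaining 475 genes were at 1 or more in AGS DMSO cells, and their median response was 3.20 in AGS, 0 in HGC27 and 0.10 in SNU16.

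Some genes were silent in AGS and abundant in both CIMP− lines. A set of 63 genes had a mean below 1 in AGS DMSO and of at least 100 in DMSO of both CIMP− lines, and 47 of them were called larger in AGS. The set was drawn from the same DMSO values that enter the difference, and the count is a description. In AGS the DCB means of the 47 ran from 0.332 to 338 with a median of 20.5. In the CIMP− lines with DCB the medians were 319 in HGC27 and 269 in SNU16. AGS cells with DCB stayed below the DCB means of both CIMP− lines in 46 of the 47, and below 0.1 of both in 25. In most of this set AGS with DCB thus reached a part of the level that the CIMP− lines held. The EBV+ lines, CIMP+ as AGS is, were often silent too. Of the 47, 29 (61.7%) had a mean below 1 in YCCEL1 DMSO and 15 (31.9%) in SNU719 DMSO, among them SLC6A8 and RTL8C in both, against 1.31% and 0.656% of the 8227 genes at 100 or more in DMSO of both CIMP− lines. In 13 of the 47 both EBV+ lines stood at 1 or more.

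TBX3 (ENSG00000135111.16, chr12:114670255-114684175), a T-box repressor of development, had the largest difference of the genes in this set. It had 322 and 355 in AGS DCB and was listed at 0 in both AGS DMSO libraries, against 433 and 431 in HGC27 DCB, 574 and 552 in HGC27 DMSO, 167 and 142 in SNU16 DCB and 158 and 159 in SNU16 DMSO. The 2 AGS DCB libraries stood within the range of the CIMP− lines, where DCB and DMSO libraries lay close together. The difference was 8.62 (SE 0.15, adjusted p = 2.4e-07), at 8.78 against HGC27 alone and 8.45 against SNU16 alone. SCRN1 (ENSG00000136193.17), secernin 1, had 107 and 120 in AGS DCB, was listed at 0 in AGS DMSO, and had 867 and 830 in HGC27 DCB, 710 and 779 in HGC27 DMSO, 1078 and 976 in SNU16 DCB and 1128 and 1077 in SNU16 DMSO. Here AGS with DCB stayed far below both CIMP− lines, and the difference was 6.79 (SE 0.12, adjusted p = 2.4e-07).

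STOM and TPM2, whose promoters are shown above, encode an integral membrane protein and a tropomyosin of actin filaments. STOM had 280 and 306 in AGS DCB and 5.36 and 4.59 in AGS DMSO, against 909 and 951 in HGC27 DCB, 899 and 948 in HGC27 DMSO, 981 and 1017 in SNU16 DCB and 561 and 640 in SNU16 DMSO. It rose in SNU16 too, by 0.74, and the difference was 5.25 (SE 0.12). TPM2 had 227 and 254 in AGS DCB and 3.42 and 2.83 in AGS DMSO, against 653 and 707 in HGC27 DCB, 413 and 491 in HGC27 DMSO, 1343 and 1299 in SNU16 DCB and 1023 and 1034 in SNU16 DMSO, with a difference of 5.40 (SE 0.14). In both genes all AGS DMSO libraries lay below all other libraries, and AGS DCB lay between AGS DMSO and the CIMP− lines.

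More genes with this pattern came from unrelated functions. PFN2, an actin-binding profilin, had 41.4 and 39.2 in AGS DCB and was listed at 0 in AGS DMSO, against 578 to 725 in the 4 HGC27 libraries and 835 to 1006 in the 4 SNU16 libraries (difference 5.32). ACAA2, a thiolase of mitochondrial fatty acid oxidation, had 280 and 323 in AGS DCB and 4.30 and 5.99 in AGS DMSO, with 802 to 852 in HGC27 and 1160 to 1342 in SNU16 (difference 5.68). SLC6A8, the creatine transporter on the X chromosome, had 340 and 245 in AGS DCB and 0.555 and 1.39 in AGS DMSO, with 837 to 1482 in HGC27 and 1342 to 1665 in SNU16 (difference 7.05). No library of AGS reached the range of the CIMP− lines in any of these 3 genes. RTL8C, a retrotransposon-derived X-linked gene, differed by 5.47, and HOXA10, a homeobox factor, by 4.24. The X chromosome held 104 (7.67%) of the 1356 genes and 3.49% of the genes tested, and 8 of the 47.

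**Figure D2:**
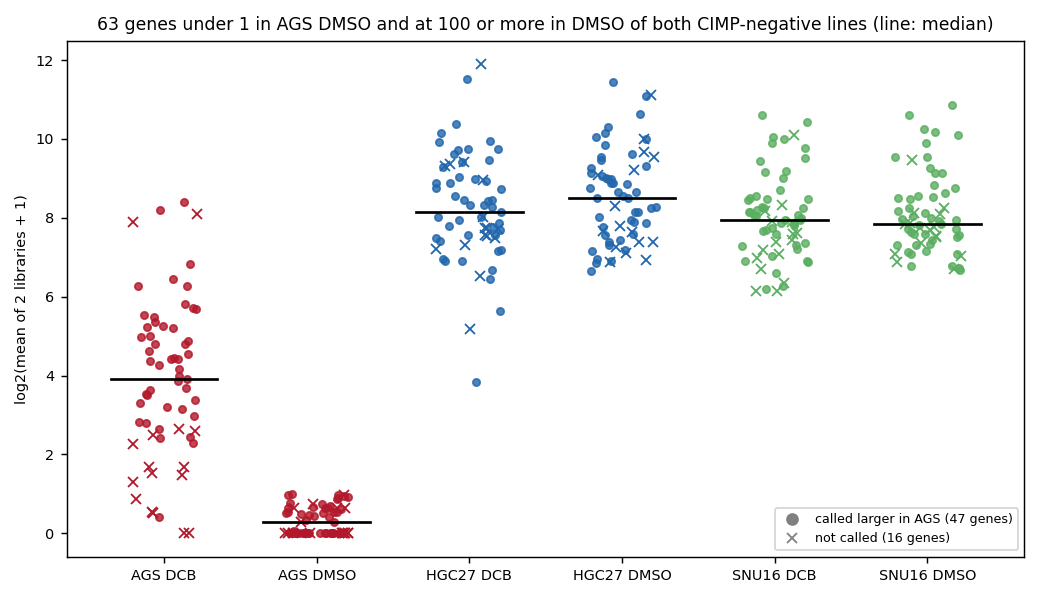
Mean of 2 libraries in each group, as log2(mean + 1), for the 63 genes with a mean under 1 in AGS DMSO and of 100 or more in DMSO of both CIMP− lines; filled points are the 47 called larger in AGS, crosses the 16 not called, and lines the medians. AGS DCB spreads from near 0 up to the level of the other lines, and HGC27 and SNU16 sit high with DCB and with DMSO.

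Some of these 47 calls need a closer reading, and the 2 genes named here were chosen after their values were seen. BHLHE41, a circadian transcription repressor, had 0 and 0.663 in AGS DCB and was listed at 0 in AGS DMSO. Its call came from HGC27, where it fell by 3.06 with DCB. PSMD5, a proteasome assembly chaperone among the 16 genes not called, had AGS DCB libraries at 515 and 31.6, so that replicates of 1 group disagreed.

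The DUX4-type genes gave the largest median difference of all 23 lists examined. DUX4 is a double-homeobox transcription factor that is active in the cleavage-stage embryo and turns on PRAMEF, TRIM43, TRIM49, MBD3L, RFPL and histone H3.Y genes. Most of these belong to families of near-identical copies, so reads may have been divided among members and single members are uncertain. Of 54 members tested (61 listed), 48 were larger in AGS and 0 were smaller at an adjusted p below 0.05, against 10.1% and 6.53% of all genes tested. The median response was 4.79 in AGS and 0 in HGC27 and in SNU16. By adjusted p 50 rose with DCB in AGS, 6 in HGC27 and 1 in SNU16, against 17.6%, 13.6% and 3.73% of all genes tested in that order. Listed at 0 in all 8 libraries of the CIMP− lines were 30 members, against 2.06% of all genes tested. These 30 passed the filter on the sum only through AGS or the EBV+ lines. The share of the list that was larger in AGS thus follows in part from the filter.

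DUX4 itself (ENSG00000260596.5, chr4:190173774-190185942), a repeated gene near the end of chromosome 4, had 129 and 144 in AGS DCB and was listed at 0 in the other 10 libraries (difference 7.10, SE 0.26, adjusted p = 7.2e-06). MBD3L2 (ENSG00000230522.5) had 155 and 183 in AGS DCB and was listed at 0 in the other 10 libraries (7.40, SE 0.27). TRIM43, a ubiquitin ligase family gene of the embryo, had 379 and 335 in AGS DCB and was listed at 0 in AGS DMSO, with at most 0.985 in any HGC27 or SNU16 library (7.99, SE 0.52). Of these 12 libraries the 2 of AGS DCB were thus the only ones above 1 in these 3 genes, while in DCB cells of the EBV+ lines DUX4 averaged 3.70 in YCCEL1 and 34.4 in SNU719, and MBD3L2 158 and 62.3. H3Y1, a primate-specific histone H3 variant, had 330 and 315 in AGS DCB and 0 and 1.12 in AGS DMSO, against 3.93 and 5.44 in HGC27 DCB and 1.15 and 3.62 in HGC27 DMSO, and was listed at 0 in SNU16 (7.38, SE 0.58). TRIM43B differed by 8.20, PRAMEF25 by 6.77, TRIM49D1 by 6.76, PRAMEF9 by 6.07 and PRAMEF15 by 5.72. The size of such a difference depends on the pseudocount, because it is measured from 0. With a filter on a mean above 5 over the 12 libraries, 27 members were called larger in place of 48.

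Not all members began at 0 in AGS. ZSCAN4, a zinc finger gene of the cleavage stage that was named after its values were seen, had 214 and 219 in AGS DCB and 17.3 and 10.3 in AGS DMSO, against at most 2.09 in any HGC27 library and 1.75 in any SNU16 library. In the genes of this list as a whole the promoter windows held few CG. The median ratio of found to expected CG was 0.216, against 0.712 over all 27260 windows. The same letters were present in 13 of the 54 (24.1%), against 0.921% of the windows overall and 34 (2.51%) of the larger genes, and the letters TATAAA in 37.0%, against 10.4% overall. As a list the DUX4-type promoters thus differed in letters from those of SCRN1, STOM and TPM2, although both kinds of gene rose in AGS. The RefSeq window of DUX4 itself was unlike the list. It held 25 CG, at a ratio of 0.620, and no match to the DUX4 core.

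**Figure D3:**
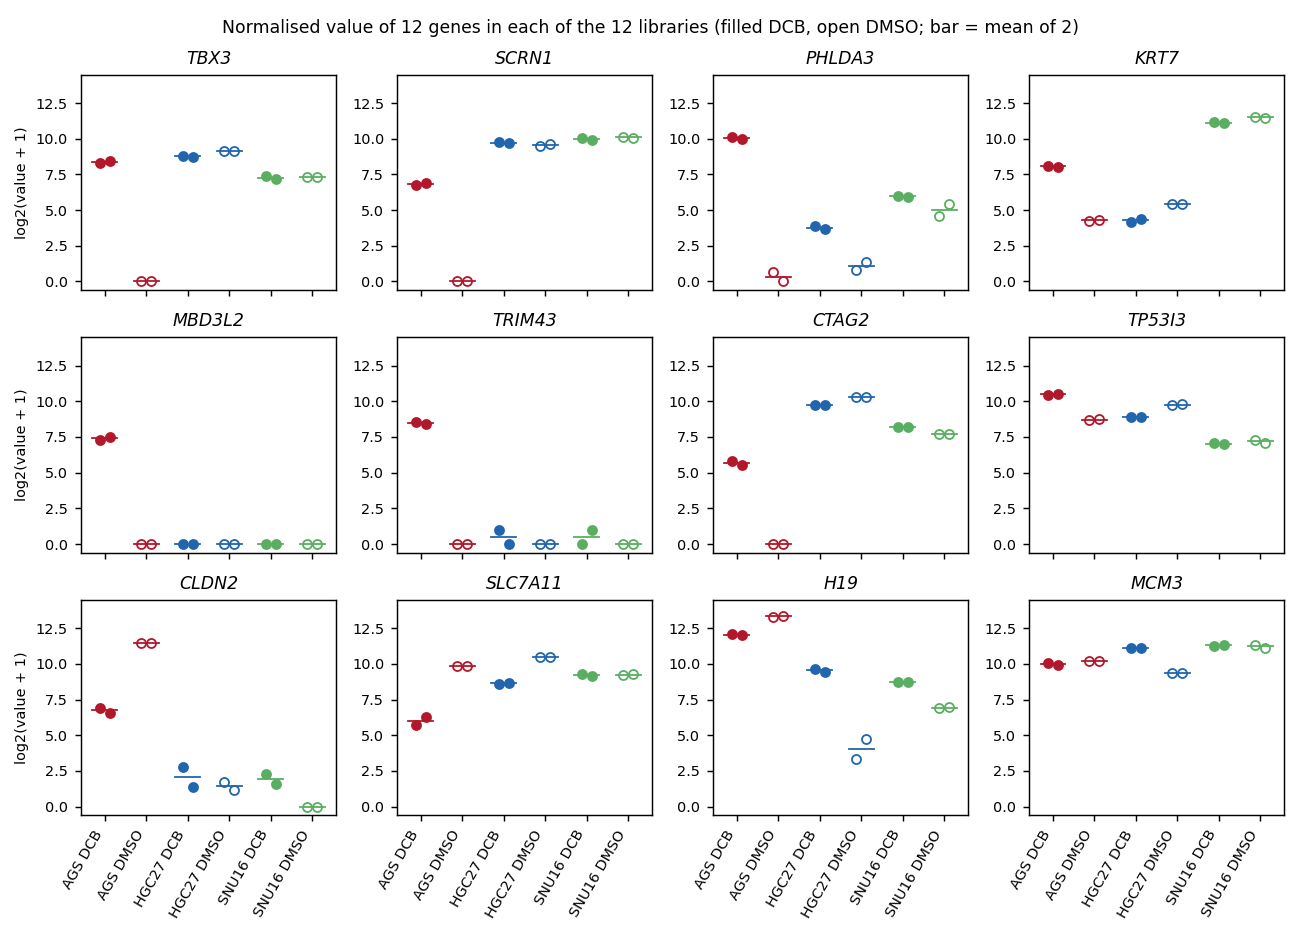
log2(value + 1) of 12 genes in each of the 12 libraries, with DCB as filled and DMSO as open points and the mean of 2 libraries as a bar. Of these 12 libraries TBX3, SCRN1 and CTAG2 are at 0 in the AGS DMSO ones alone, MBD3L2 and TRIM43 stand out in the AGS DCB ones alone, and MCM3 is low in HGC27 DMSO.

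Cancer-testis antigens, which are made in germ cells and in tumours and are mostly X-linked, responded in AGS and in SNU16 more than in HGC27. Of 49 members tested (54 listed), 28 (57.1%) were larger in AGS and 2 (4.08%) smaller, against 10.1% and 6.53% of all genes tested. In all 8 libraries of the CIMP− lines 5 of the 49 were at 0 and passed the filter through other lines. The median response was 5.57 in AGS, 0.79 in HGC27 and 2.31 in SNU16, and 42 rose in AGS, 14 in HGC27 and 24 in SNU16, against 17.6%, 13.6% and 3.73% of all genes in that order. The CIMP− lines were not alike, as 13 members responded less in HGC27 than in SNU16 and 1 more, against 4.89% and 6.78% of all genes. HGC27 had the highest summed level of the list before treatment. The sums were 7840 in HGC27 DMSO, 666 in AGS DMSO and 1433 in SNU16 DMSO. With DCB they were 8506 in HGC27, 3704 in AGS and 3271 in SNU16. The count larger in AGS was 31 against HGC27 alone, where 10.9% of all genes were larger, and 19 against SNU16 alone, where 7.80% were. MAGEA, GAGE and SPANX genes are near-identical copies too, and single members are uncertain.

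CTAG2, a close copy of the antigen NY-ESO-1, was silent in AGS DMSO but abundant in both CIMP− lines. Among the EBV+ lines it was listed at 0 in YCCEL1 DMSO and averaged 15.6 in YCCEL1 DCB, and it averaged 521 in SNU719 DCB and 638 in SNU719 DMSO. CTAG2 had 55.3 and 46.4 in AGS DCB and was listed at 0 in AGS DMSO, against 840 and 860 in HGC27 DCB, 1252 and 1279 in HGC27 DMSO, 290 and 294 in SNU16 DCB and 212 and 206 in SNU16 DMSO (difference 5.74, SE 0.14, adjusted p = 1.1e-06). It fell in HGC27 with DCB, by 0.57. MAGEA12 and MAGEA2 had the same order of lines, with differences of 5.31 and 4.70. SPANXB1, a protein of the sperm nucleus, had 76.5 and 86.6 in AGS DCB and was listed at 0 in the other 10 libraries (6.37, SE 0.25), and SPANXC had 95.9 and 120 in AGS DCB alone (6.76).

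Members of the meiosis and piRNA list rose in all 3 lines, and fewer of them separated AGS. Of 43 members tested, 30 rose in AGS, 24 in HGC27 and 15 in SNU16, against 17.6%, 13.6% and 3.73% of all genes tested, with median responses of 3.56, 2.22 and 1.55 in that order. Larger in AGS were 9 (20.9%) and smaller 1 (2.33%), against 10.1% and 6.53% of all genes. TEX101, a germ-cell surface protein, had 83.8 and 98.2 in AGS DCB and was listed at 0 in AGS DMSO, with at most 3.27 in HGC27 and SNU16 libraries (5.41, SE 0.50). TDRD12, a Tudor-domain protein of the piRNA pathway, had 201 and 192 in AGS DCB and was listed at 0 in AGS DMSO, against 126 and 85.3 in HGC27 DCB, 1.86 and 3.90 in HGC27 DMSO, 77.6 and 70.5 in SNU16 DCB and 2.78 and 3.20 in SNU16 DMSO. TDRD12 rose in all 3 lines, and by 3.10 (SE 0.41, adjusted p = 0.0018) more in AGS.

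DAZL, SYCP3 and SSX2, named after their values were seen, show the common part of the response. DAZL, which binds the RNAs of developing germ cells, had 341 and 374 in AGS DCB and 0.892 and 0 in AGS DMSO, 406 and 399 in HGC27 DCB and 178 and 186 in SNU16 DCB, and was listed at 0 in DMSO of both CIMP− lines. Its response exceeded the CIMP− mean by −0.06 (SE 0.39), within its error. SYCP3, of the meiotic chromosome axis, gave 1.32 (SE 0.88) and SSX2, a cancer-testis antigen, gave 0.22 (SE 0.60), and all 3 genes rose in each of the 3 lines. The piRNA gene DDX4, an RNA helicase, rose in AGS and HGC27, and its difference of 2.11 (SE 1.12, adjusted p = 0.26) did not pass the test.

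**Figure D4:**
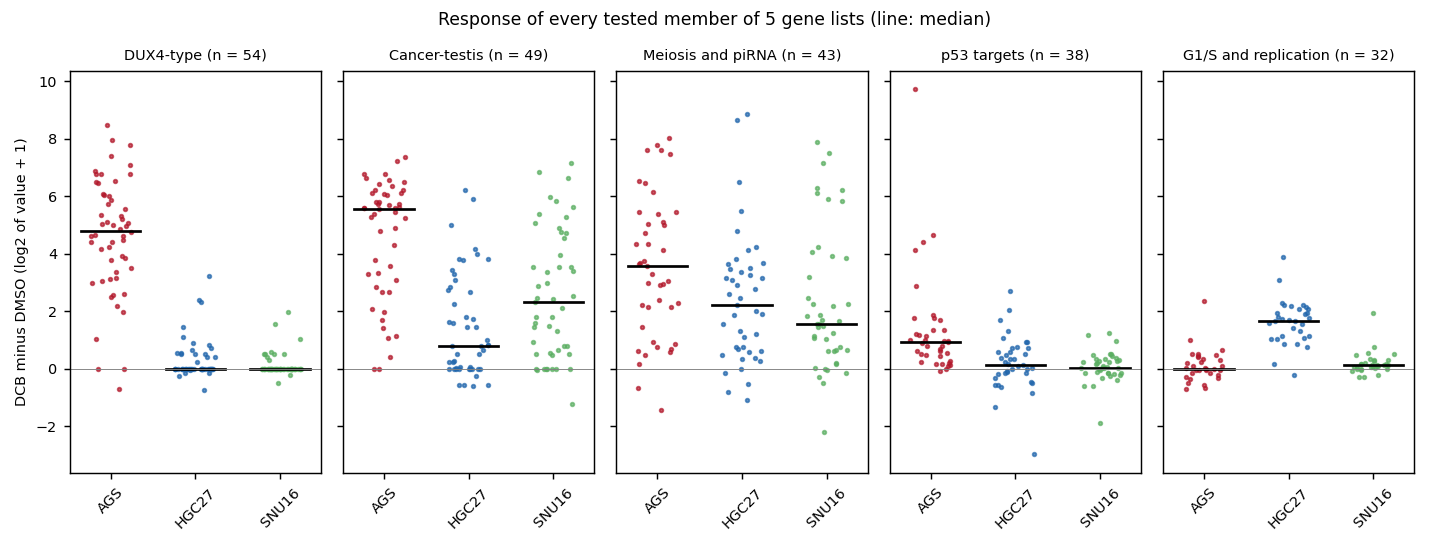
DCB minus DMSO (log2 of value + 1) of every tested member of 5 gene lists in AGS, HGC27 and SNU16, 1 point per gene, with the median as a line. DUX4-type members spread upward in AGS and crowd at 0 in HGC27 and SNU16, and G1/S genes lie above 0 in HGC27, where the median is 1.67.

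Keratins and genes of epidermal differentiation formed another group. Keratins are the intermediate filaments of epithelia, and the members that moved include those of stratified skin and hair, which a stomach cell does not normally make. Of 32 keratins tested (53 listed), 18 (56.2%) were larger in AGS and 2 (6.25%) smaller, against 10.1% and 6.53% of all genes tested, so that the smaller share was close to that of all genes. In all 8 libraries of the CIMP− lines 8 of the 32 were at 0, against 2.06% of all genes tested. These 8 passed the filter only through AGS or the EBV+ lines, which raises the share larger in AGS. With DCB 23 rose in AGS, 5 in HGC27 and 5 in SNU16, against 17.6%, 13.6% and 3.73% of all genes in that order. KRT7, of simple ducts, had 274 and 261 in AGS DCB and 17.5 and 19.2 in AGS DMSO, against 17.4 and 19.4 in HGC27 DCB, 41.1 and 41.6 in HGC27 DMSO, 2290 and 2152 in SNU16 DCB and 3006 and 2855 in SNU16 DMSO (4.56, SE 0.12, adjusted p = 1.3e-06). It rose in AGS and fell in HGC27.

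KRT6A, a keratin of wounded and stratified epithelium, had 289 and 332 in AGS DCB and 6.44 and 2.98 in AGS DMSO, with at most 0.439 in HGC27 and SNU16 libraries (5.57, SE 0.41). KRT23 had 756 and 697 in AGS DCB and 5.67 and 6.87 in AGS DMSO, against 63.6 and 79.5 in SNU16 DCB and 14.4 and 15.1 in SNU16 DMSO, and at most 1.26 in HGC27 (5.85, SE 0.48). The hair keratins KRT34 and KRT36 were seen in AGS DCB and listed at 0 in the other 10 libraries, with differences of 5.61 and 3.23. Of 26 tested genes of the epidermal differentiation complex and S100 family (52 listed), 9 (34.6%) were larger and 1 smaller, among the larger LCE1E, of the cornified envelope, at 5.49. In this list too, 9 of the 26 were at 0 in all 8 libraries of the CIMP− lines. KLK5, a skin protease, had 320 and 347 in AGS DCB and 4.22 and 6.35 in AGS DMSO, with at most 1.97 in HGC27 and SNU16 libraries (5.65, SE 0.69), and 6 of 22 serpin and kallikrein genes were larger and 2 smaller. Without replicate 2 of AGS DMSO or of AGS DCB, 3 of these 22 were larger. Few epithelial markers moved with these genes. Of 8, 0 were larger and 1, KRT18, was smaller. Their summed level was 53746 in AGS DCB and 36076 in AGS DMSO, 756 in HGC27 DCB and 286 in HGC27 DMSO, and 36616 in SNU16 DCB and 40243 in SNU16 DMSO.

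Many targets of p53, the transcription factor that answers DNA damage, rose in AGS. Of 38 tested, 19 were larger in AGS and 0 smaller, against 10.1% and 6.53% of all genes, and the median response was 0.91 in AGS, 0.14 in HGC27 and 0.04 in SNU16. In AGS 26 rose and 0 fell, in HGC27 10 rose and 6 fell, and in SNU16 1 rose and 1 fell. The share of all genes tested that rose was 17.6% in AGS, 13.6% in HGC27 and 3.73% in SNU16. The share that fell was 8.48% in AGS, 8.28% in HGC27 and 1.82% in SNU16. PHLDA3 (ENSG00000174307.7, chr1:201464278-201469237), a p53-induced repressor of Akt, had 1132 and 1001 in AGS DCB and 0.559 and 0 in AGS DMSO, against 13.7 and 11.7 in HGC27 DCB, 0.721 and 1.51 in HGC27 DMSO, 63.6 and 58.9 in SNU16 DCB and 22.6 and 41.6 in SNU16 DMSO. It rose in HGC27 as well, by 2.72, and the difference was 7.89 (SE 0.46, adjusted p = 3.9e-05).

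Other p53 targets were well expressed in AGS before treatment. TP53I3, a quinone oxidoreductase, had 1420 and 1454 in AGS DCB and 418 and 426 in AGS DMSO, against 481 and 478 in HGC27 DCB, 849 and 901 in HGC27 DMSO, 133 and 128 in SNU16 DCB and 159 and 133 in SNU16 DMSO (2.28, SE 0.11). It rose in AGS and fell in HGC27, and the 2 AGS DCB libraries were above all other libraries. FDXR, ferredoxin reductase, differed by 1.82 (SE 0.14), PPM1D, a phosphatase that turns p53 off, by 1.69 (SE 0.14), and PERP, a desmosomal protein, by 1.23 (SE 0.06). EDA2R, a receptor of the tumour necrosis factor family, had 84.4 and 86.2 in AGS DCB and 2.69 and 5.62 in AGS DMSO and was listed at 0 in HGC27 and SNU16 (4.13). The best known target did not separate AGS from the CIMP− mean. CDKN1A, the cyclin-dependent kinase inhibitor p21, named after its values were seen, had 5285 and 4971 in AGS DCB and 2093 and 1995 in AGS DMSO, against 430 and 555 in HGC27 DCB, 114 and 123 in HGC27 DMSO, 334 and 347 in SNU16 DCB and 265 and 236 in SNU16 DMSO. It rose by 1.33 in AGS and by 2.04 in HGC27, and its change of 0.44 in SNU16 did not pass the test (adjusted p = 0.081). The difference of 0.09 from the CIMP− mean (SE 0.15, adjusted p = 0.755) joined −0.71 against HGC27 (adjusted p = 0.022) and 0.89 against SNU16 (adjusted p = 0.013). MDM2, the ligase that degrades p53, also named after its values were seen, differed by 1.61 (SE 0.16).

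**Figure D5:**
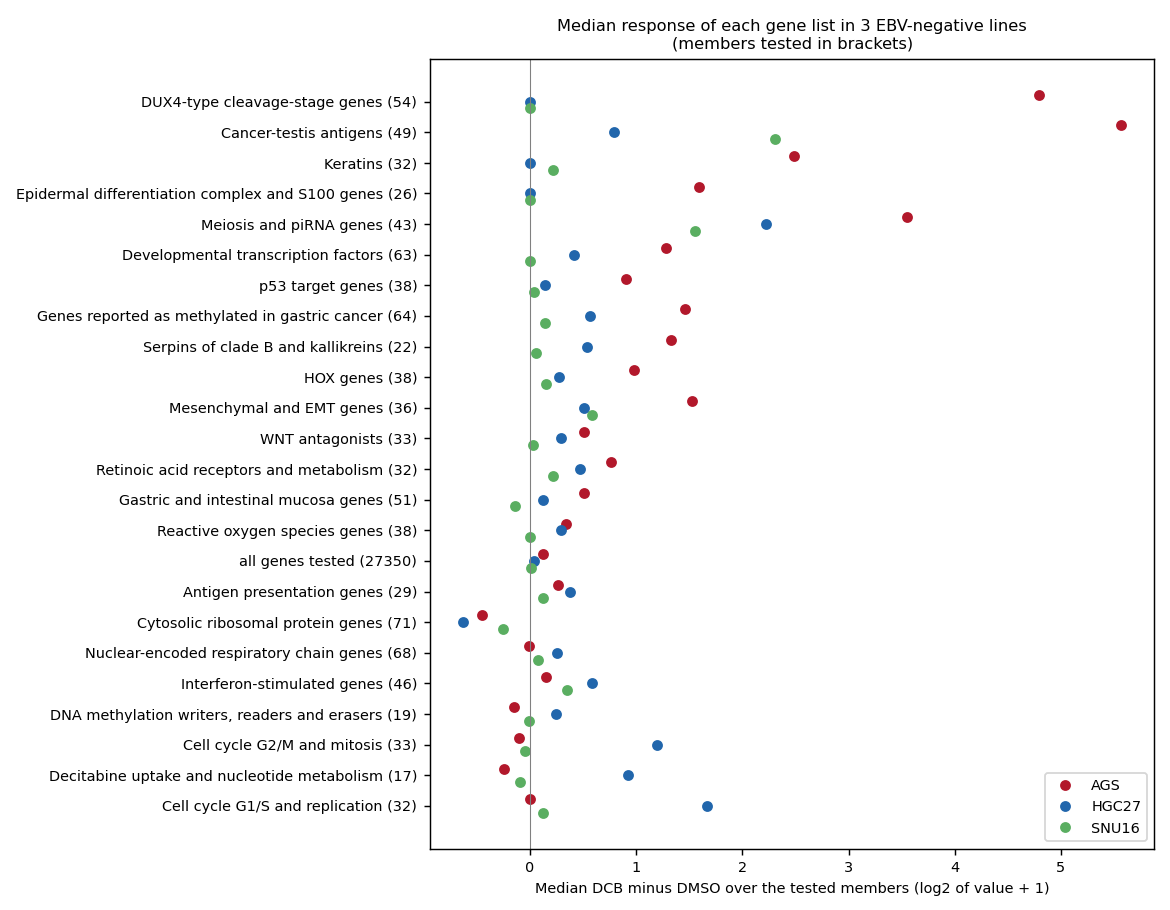
Median DCB minus DMSO (log2 of value + 1) of each gene list and of all genes tested in AGS, HGC27 and SNU16, 1 point per line, with the number of members tested in brackets. AGS leads at the top from the DUX4-type to the germ-cell and keratin lists, and HGC27 stands alone at the bottom in the cell cycle lists.

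Of 64 genes that have been reported as methylated in gastric cancer, 22 (34.4%) were larger in AGS and 1 (1.56%) smaller, against 10.1% and 6.53% of all genes, with a median difference of 0.73. IGFBP7, a secreted tumour suppressor, had 80.5 and 92.9 in AGS DCB and was listed at 0 in AGS DMSO, against 1088 and 1123 in HGC27 DCB and 279 and 299 in HGC27 DMSO, and was listed at 0 in SNU16 (5.48, SE 0.28). TIMP3, a metalloproteinase inhibitor, had 98.4 and 108 in AGS DCB and 0 and 1.12 in AGS DMSO, against 458 and 433 in HGC27 DCB and 267 and 257 in HGC27 DMSO, and at most 3.94 in SNU16 (5.34, SE 0.46). Both genes were at or near 0 in AGS and in SNU16 DMSO cells alike, and they rose in AGS and passed no test in SNU16. CHFR, a mitotic checkpoint ligase, had 49.2 and 78.4 in AGS DCB and 2.79 and 8.03 in AGS DMSO, with 223 to 321 in HGC27 and 229 to 392 in SNU16 (3.87, SE 0.47). CDKN2A, the gene of p16, named after its values were seen, had 13.5 and 39.5 in AGS DCB and 0 and 0.761 in AGS DMSO, against 810 to 842 in HGC27 and at most 1.17 in SNU16 (3.91, SE 0.68).

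Mesenchymal genes and gastric mucosa genes both moved in AGS. Of 36 mesenchymal genes 11 (30.6%) were larger and 2 (5.56%) smaller, against 10.1% and 6.53% of all genes, led by FN1, fibronectin, with 333 and 412 in AGS DCB and 1.03 and 0 in AGS DMSO, 671 and 606 in HGC27 DCB and 247 and 295 in HGC27 DMSO, and at most 7.42 in SNU16 (6.44, SE 0.81). The summed level of the 6 mesenchymal markers was 2897 in AGS DCB and 347 in AGS DMSO, 38782 in HGC27 DCB and 82635 in HGC27 DMSO, and 66.8 in SNU16 DCB and 13.9 in SNU16 DMSO. Against SNU16 alone 6 of the 36 were larger, and 7.80% of all genes were. Mucosa genes split, with 14 (27.5%) of 51 larger and 8 (15.7%) smaller, where 5 were smaller without either AGS DCB library or without replicate 2 of AGS DMSO. CLDN18, the claudin of gastric epithelium, had 69.1 and 75.3 in AGS DCB and 1.52 and 0.955 in AGS DMSO, against 74.4 and 83.6 in SNU16 DCB and 102 and 99.6 in SNU16 DMSO, and was listed at 0 in HGC27 (5.22, SE 0.33). REG4, a secreted lectin of the gut, had 3450 and 3453 in AGS DCB and 567 and 562 in AGS DMSO, against 0 in HGC27 DCB, 5.04 and 9.03 in HGC27 DMSO, 7225 and 7365 in SNU16 DCB and 8286 and 8196 in SNU16 DMSO (4.18, SE 0.24). CLDN18 in AGS DCB thus came close to its SNU16 level, and REG4 stayed below it.

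The reactive oxygen genes held members with opposite directions. DUOX2, a dual oxidase that makes hydrogen peroxide, had 395 and 341 in AGS DCB and 11.7 and 8.34 in AGS DMSO, and was low in all HGC27 and SNU16 libraries (4.84, SE 0.55). Its maturation factor DUOXA2 had 27.8 and 31.1 in AGS DCB and was listed at 0 in the other 10 libraries (4.93, SE 0.24). The genes are neighbours on chromosome 15, and both rose in AGS. SLC7A11, the cystine importer that feeds glutathione synthesis, went the other way. It had 51.0 and 78.2 in AGS DCB and 943 in each AGS DMSO library, against 390 and 402 in HGC27 DCB, 1418 and 1431 in HGC27 DMSO, 616 and 566 in SNU16 DCB and 588 and 623 in SNU16 DMSO (−2.94, SE 0.20, adjusted p = 9.1e-05). SLC7A11 fell in AGS and in HGC27, by less in HGC27. NQO1, a quinone reductase, fell in AGS and rose in HGC27, with a small fall in SNU16 (−1.26, SE 0.07).

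Among the remaining lists, 10 of 63 developmental transcription factors were larger in AGS and 1 smaller, with NKX2-1, a lung and thyroid factor, at 4.31. Of 38 HOX genes 8 were larger and 0 smaller. Retinoic acid genes counted 6 larger and 1 smaller of 32, with ALDH1A3, which makes retinoic acid, at 4.33. WNT antagonists counted 7 larger and 3 smaller of 33. The larger shares of these lists, 15.9%, 21.1%, 18.8% and 21.2% in that order, stood above the 10.1% of all genes tested, by a margin that was not tested. Without replicate 1 of HGC27 DMSO the count of developmental factors was 6, and without replicate 2 of AGS DMSO that of retinoic acid genes was 3. Interferon-stimulated genes did not lean to AGS. Of 46, 6 were larger and 7 (15.2%) smaller, against 10.1% and 6.53% of all genes tested. The smaller share thus stood above that of all genes, by a margin that was not tested. MX1, an antiviral GTPase, was larger by 2.17 (SE 0.39), whereas IFITM3, BST2 and LGALS3BP fell in AGS and rose in HGC27, with differences of −1.76, −1.57 and −1.47. The count of 6 rested on few genes, since it was 1 without either AGS DCB library and 3 without either AGS DMSO library or without replicate 2 of SNU16 DMSO. Cytosolic ribosomal protein genes mostly fell in all lines, 62 of 71 in AGS, 71 in HGC27 and 55 in SNU16. Of all genes tested 8.48%, 8.28% and 1.82% fell in that order. The median response of the ribosomal genes was −0.45 in AGS, −0.63 in HGC27 and −0.26 in SNU16. Against HGC27 alone 40 were larger in AGS and 2 smaller, where 10.9% and 8.33% of all genes were. Against SNU16 alone 0 were larger and 34 smaller, where 7.80% and 4.05% were. The median difference from the mean, which joins these unlike responses, rounds to 0, with 10 (14.1%) larger and 14 (19.7%) smaller.

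The smaller genes included abundant epithelial genes of AGS. CLDN2 (ENSG00000165376.12, chrX:106900164-106930861), a claudin that forms cation pores, had 121 and 93.4 in AGS DCB and 2826 and 2777 in AGS DMSO, against at most 5.90 in the HGC27 libraries and 3.95 in the SNU16 libraries (−5.99, SE 0.61, adjusted p = 0.00053). It fell in AGS, and the CIMP− lines hardly expressed it. PRSS1, cationic trypsinogen, had 3.55 and 2.12 in AGS DCB and 207 and 253 in AGS DMSO, against 44.2 and 74.7 in SNU16 DCB and 31.9 and 31.1 in SNU16 DMSO (−6.70, SE 0.60). ZBTB20, a transcription repressor, had 9.84 and 6.12 in AGS DCB and 210 and 264 in AGS DMSO, with 7.06 and 16.9 in HGC27 DCB and 2.82 and 1.67 in HGC27 DMSO (−6.98, SE 0.70).

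DOCK11 and H19 differed in what made the response smaller. DOCK11, a guanine nucleotide exchange factor for CDC42, had 39.8 and 43.8 in AGS DCB and 313 and 351 in AGS DMSO, against 443 and 477 in HGC27 DCB, 450 and 413 in HGC27 DMSO, 304 and 208 in SNU16 DCB and 135 and 151 in SNU16 DMSO (−3.41, SE 0.21, adjusted p = 5.7e-05). It fell in AGS alone and rose in SNU16. H19, an imprinted non-coding RNA, had 4354 and 4125 in AGS DCB and 10199 and 10500 in AGS DMSO, against 787 and 699 in HGC27 DCB, 9.23 and 25 in HGC27 DMSO, 424 and 419 in SNU16 DCB and 119 and 124 in SNU16 DMSO (−4.93, SE 0.42). H19 fell in AGS, where it was already abundant, and rose in both CIMP− lines. ERVH48-1, which encodes a retroviral envelope fragment, gave −5.11 with 256 and 319 in AGS DCB and 270 and 231 in AGS DMSO, and rose in HGC27 and SNU16. C1orf21 gave −3.14, COLCA2 −4.78, SYNPO, an actin-associated protein, −2.38 and PTGER2, a prostaglandin E2 receptor, −5.28.

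The smaller response of cell cycle genes in AGS rested on 1 of the CIMP− lines, HGC27. Of 32 G1/S and replication genes, 20 were smaller in AGS and 2 larger, and of 33 G2/M and mitosis genes, 21 were smaller and 0 larger. Of all genes tested 6.53% were smaller and 10.1% larger. The median response of the G1/S list was 0.00 in AGS, 1.67 in HGC27 and 0.12 in SNU16. Against SNU16 alone, 0 of the G1/S genes and 4 of the G2/M genes were smaller in AGS, whereas against HGC27 alone 26 and 27 were. Of all genes tested 4.05% were smaller against SNU16 and 8.33% against HGC27. In HGC27 28 of the G1/S genes rose, in AGS 4 and in SNU16 2, against 13.6%, 17.6% and 3.73% of all genes tested. MCM3, of the replicative helicase, had 1057 and 966 in AGS DCB and 1158 and 1199 in AGS DMSO, against 2191 and 2222 in HGC27 DCB, 657 and 648 in HGC27 DMSO, 2472 and 2548 in SNU16 DCB and 2599 and 2265 in SNU16 DMSO. HGC27 DMSO libraries were the low ones, and the difference of −1.12 (SE 0.09) was −1.98 against HGC27 and −0.27 against SNU16, where it did not pass the test (adjusted p = 0.14). RRM2, a subunit of ribonucleotide reductase, gave −1.33 against the mean, −2.80 against HGC27 and 0.14 against SNU16.

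A few of these genes were smaller against both lines singly. In the G2/M list they were KIF11, TOP2A, NDC80 and CDC25C, of which NDC80 and CDC25C were named after their values were seen, with differences against SNU16 of −0.61, −0.55, −0.49 and −0.98. CDCA7 was the only such gene of the DNA methylation list. It encodes an activator of the chromatin remodeller HELLS, which DNA methylation needs, and had 498 and 496 in AGS DCB and 1630 and 1613 in AGS DMSO, against 758 and 765 in HGC27 DCB, 410 and 494 in HGC27 DMSO, 700 and 697 in SNU16 DCB and 729 and 674 in SNU16 DMSO. It fell in AGS and rose in HGC27, and the difference was −2.08 (SE 0.11, adjusted p = 2.4e-05), at −2.46 against HGC27 and −1.70 against SNU16. DNMT1, the maintenance methyltransferase that DCB traps, gave −1.38 (SE 0.22, adjusted p = 0.0043) and did not pass against SNU16 alone (−0.77, adjusted p = 0.094). Of 19 genes of DNA methylation, 6 were smaller and 0 larger, against 6.53% and 10.1% of all genes tested. Against SNU16 alone 3 were smaller and 2 larger, where 4.05% and 7.80% of all genes were. UHRF1, which guides DNMT1 to hemimethylated DNA, gave −0.95 against the mean and 0.46 against SNU16. Of 17 genes of DCB uptake and nucleotide metabolism 8 (47.1%) were smaller and 3 (17.6%) larger, and against SNU16 alone 1 and 2, beside the same shares of all genes. CCND1, cyclin D1, rose in AGS, fell in HGC27 and gave 1.07 (SE 0.05).

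A part of the genes larger in AGS was also called higher in the EBV+ lines, which are CIMP+ too and share no library with the comparison. Of the 1356, 489 (36.1%) were called higher with DCB in YCCEL1, against 6.68% of all genes tested, and made up 26.8% of the 1828 genes called there. In SNU719 the numbers were 384 (28.3%), against 5.26%, and 26.7% of 1439. Called in both EBV+ lines were 277 (20.4%), against 2.64%, and these were 38.4% of the 721 genes called in both. The larger part, 760 (56.0%), was called higher in neither EBV+ line, against 90.7% of all genes tested. Of the 288 smaller genes, 4 were called lower in YCCEL1 or SNU719, against 0.296% of all genes, but more were called higher, 37 (12.8%) in YCCEL1, 24 (8.33%) in SNU719 and 15 (5.21%) in both.

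DUX4-type genes rose in the EBV+ lines as in AGS, 46 of 54 in YCCEL1 and 43 in SNU719 by adjusted p. Of all genes tested 12.8% and 12.3% rose, and the median responses of the list were 5.67 and 3.71. The 30 members at 0 in all CIMP− libraries passed the filter only through AGS or the EBV+ lines. These counts thus also follow in part from the filter. DUX4 itself rose in SNU719 by 5.01, and its change of 2.01 in YCCEL1 did not pass the test (adjusted p = 0.10). TRIM43 averaged 558 in YCCEL1 DCB and was listed at 0 in YCCEL1 DMSO, and averaged 110 in SNU719 DCB and was listed at 0 in SNU719 DMSO. STOM rose in both, to a mean of 151 in YCCEL1 DCB against 0.602 in YCCEL1 DMSO and of 281 in SNU719 DCB against 1.31 in SNU719 DMSO. TBX3, by contrast, was not silent in either EBV+ line. It averaged 1174 in YCCEL1 DCB and 953 in YCCEL1 DMSO, and 646 in SNU719 DCB and 740 in SNU719 DMSO. CLDN2 fell in AGS and in both EBV+ lines, by 0.23 in YCCEL1 and 1.71 in SNU719. H19, which fell in AGS, rose in YCCEL1 and in SNU719, by 6.53 and 6.20 in that order. SLC7A11 fell in YCCEL1 by 0.66, and its change of 0.16 in SNU719 did not pass the test.

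Promoter letters separated the classes of larger genes. Over all 27260 windows the median ratio of found to expected CG was 0.712, and it was 0.594 in the larger and 0.497 in the smaller genes. Among larger genes below 1 in AGS DMSO and at 1 or more in both CIMP− lines it was 0.789, against 0.613 in all tested genes of that kind, and in the 47 genes silent in AGS and at 100 or more in both CIMP− lines 0.849. Genes at 1 or more in DMSO of all 3 lines had 0.817, close to these 47. Larger genes that were below 1 in DMSO of all 3 lines had 0.318, against 0.342 in all tested genes of that kind. The median was 0.524 in cancer-testis genes, 0.233 in keratins, 0.838 in meiosis and piRNA genes and 0.830 in p53 targets. By median, those 47 thus had windows about as rich in CG as genes expressed in all 3 lines. The windows of the DUX4-type genes and keratins were, by median, poor in it. Methylation itself was not analysed here.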

How the data were processed

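RNA of 5 gastric cancer lines, treated with DCB or DMSO in 2 libraries each, had been sequenced. The deposited values are normalised counts, a coverage signal that the authors made with STAR 2.5.2b, featureCounts 1.5.1 and DESeq2 1.14.1 per the submitters' processing notes. These notes name GRCh37, whereas the study's methods name GRCh38, and 92.6% of the 60064 genes found in GENCODE v44 had identical GRCh38 coordinates. The library kit is given differently in the labels and in the methods, and whether counting used strand is not given in the sources used here, so overlapping and antisense genes cannot be told apart. The methods name MKN74 where the labels name HGC27, and the labels were followed. From 36.4% to 44.5% of low values were whole multiples of the most frequent low value (tolerance 0.02), so reads were not recovered and no count test was run.

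Differences on log2(value + 1) came from limma 3.58.1 in R 4.3.3, by lmFit and eBayes with trend, over genes with a sum above 10 in 20 libraries. The 12 libraries of AGS, HGC27 and SNU16 were fitted as 6 groups with 6 residual degrees of freedom, and the 8 libraries of YCCEL1 and SNU719 separately. P-values were adjusted by Benjamini-Hochberg over all 27350 genes. A gene was called at an adjusted p below 0.05 and an absolute difference above 2, and members of lists were counted by adjusted p alone. Depth was 7101709 to 9997966 read equivalents a library, taking the most frequent low value as 1 read, and no interval on counts was formed.

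Named genes were, among those called against the mean and both single lines with library differences that did not overlap, the 10 with the smallest p and the 10 with the largest difference on the larger side and 6 of each on the smaller side, up to 6 members of each list with the smallest p, and genes that the study names. Genes outside this rule are marked where they stand. The members and lists were chosen with earlier results of these data known. Promoter windows came from GRCh38 at GENCODE v44 starts for the summaries and from RefSeq for the sequences printed, of which 141 of 201 named genes had one. GENCODE starts were chosen after the data were seen, once the RefSeq windows had proved too few. Pseudocounts, filters, scaling, the tool's options, single CIMP− lines, left-out libraries and a replicate block were tried as alternatives. Scripts were tested on simulated data. Other tools were the R package data.table (1.17.8), Python 3.11.15, numpy 2.4.6, pandas 2.3.3 and matplotlib 3.10.9.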

Additional observations from a re-analysis of the deposited data

Results flagged for a closer look

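The responses of the lines differed by a direct test of the difference, and this is what marked the following values. The AGS response exceeded the CIMP− mean in 1356 genes and fell short of it in 288. The 2 CIMP− lines also differed from each other. The HGC27 response exceeded the SNU16 response in 649 genes (2.37% of those tested) and fell short of it in 426 (1.56%), so the CIMP− mean joins unlike responses for these genes. Of the 1356 genes larger in AGS, 141 (10.4%) were among them, and of the 288 smaller genes 66.

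Among genes named in the text, the HGC27 minus SNU16 difference was 2.99 in ALDH1A3 and 3.72 in H19. In KRT23 and REG4 it was −2.78. In genes of DNA synthesis and methylation it was 2.94 in RRM2, 2.62 in TK1, 2.34 in TYMS and 2.80 in UHRF1. These 4 genes rose with DCB in HGC27 and passed no test in SNU16, and their HGC27 DMSO libraries were the lowest of the 12. With 2 libraries a group, no single library could be marked as standing apart from its group.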

How the results depend on the processing

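The main limits are 1 CIMP+ line, 2 libraries a group and values measured from 0. With a pseudocount of 4, 783 genes were larger in AGS and 139 smaller, 540 were larger against the mean and each line, and DCB calls were 1205 higher and 89 lower in AGS, 552 and 66 in HGC27, 235 and 5 in SNU16, 883 higher in YCCEL1 and 688 in SNU719, with 382 and 265 for HGC27 minus SNU16. Of the 783, 730 were shared with the 1356. Genes lower in SNU16 numbered 38 with a pseudocount of 0.5 and 37 with 20 libraries. With no limit on size 2770 were larger and 1786 smaller, 823 were smaller with a limit of 1, and 635 against HGC27 alone. A filter on a mean above 5 left 27 DUX4-type genes larger. SNU16 alone left 0 smaller G1/S genes and 4 G2/M genes, and it turned RRM2 to 0.14, TYMS to 0.030 and UHRF1 to 0.46.

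Replicate numbers did not pair samples, since samples with the same number deviated together at r = −0.019 to 0.015. The replicate block gave 1051 genes larger and 191 smaller in AGS, 48 smaller against the mean and each line, 258 higher and 13 lower in SNU16, 1196 higher in YCCEL1, and 387 and 223 for HGC27 minus SNU16. Under the block NPIPA5 no longer passed (adjusted p = 0.0545).

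Leaving out each library in turn gave 1179 to 1280 genes larger and 250 to 315 smaller in AGS, and 671 to 763 and 62 to 92 against the mean and each line. DCB calls ran from 2034 to 2078 higher and 170 to 196 lower in AGS, 1097 to 1185 and 140 to 196 in HGC27, 379 to 453 and 34 to 44 in SNU16, 1313 to 1544 higher in YCCEL1 and 1078 to 1140 in SNU719. HGC27 minus SNU16 ran from 480 to 656 and from 314 to 383. Of 85 single genes followed, which leave out those named after their values were seen, 76 kept their direction and side of the threshold under every setting tried.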
